A study of Homo sapiens with 16 samples.

Results

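The region described here is the stretch of chromosome 8 that holds MYC, the gene-poor enhancer region before it and the start of the PVT1 side beyond it. Its members are all listed ChIP-seq peaks that overlap 1.1 Mb of the human build hg18, from 128100000 to 129200000 on chromosome 8. This gave 87 of the 146596 peaks in 12 lists, 56 from S phase and 31 from M phase. MYC was taken to lie at about 128817500 to 128822900, and a colorectal cancer risk enhancer at 128482487, which is 335 kb before the MYC start. Distances below run from that MYC start, with negative values before the gene. No hg18 gene annotation was used, so no peak was assigned to an exon or intron. In the GRCh38 annotation the next gene beyond MYC is PVT1.

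MYC encodes a helix-loop-helix transcription factor that drives cell growth, and PVT1 is a long noncoding RNA gene beside it that is often gained together with it in tumours. In colorectal cancer MYC is an output of Wnt signalling, and much of its control is attributed to distant enhancers in the large gene-poor region before it, where inherited risk variants for several cancers lie. A CTCF site just before the MYC promoter is known as a contact point for such enhancers. CTCF is a zinc-finger protein that marks loop ends, and RAD21 belongs to cohesin, a ring of proteins that keeps sister chromatids and DNA loops together. HNF4A is a nuclear receptor of gut and liver epithelium, and KLF5 is a zinc-finger factor of dividing gut epithelium.

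The study mapped these 5 proteins and histone H3 in LoVo, an established colon adenocarcinoma cell line. The S-phase cells had been stopped early in DNA replication by 2 rounds of 12 h in 2 mM thymidine, 8 h apart, and the M-phase cells by 12 h of thymidine and then 8 h in 200 ng/ml nocodazole, a drug that blocks the mitotic spindle. There was 1 library for each protein and phase, with rabbit IgG (goat IgG for CTCF) as the control, so phases were compared without replicates and without a test across samples. The labels name no genotype change and no treatment beyond the arrests. Although the design text of the series names RAD21 siRNA, the labels of these samples do not carry it.

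The libraries that gave the lists held 7362169 to 16813394 tags after redundant tags were removed. The M-phase libraries were deeper than those of S phase by 2.19 times for RAD21, 1.89 for CTCF, 1.65 for MYC and 1.38 for HNF4A, and shallower for KLF5, at 0.712 times. Intervals below are 95% intervals, exact (Clopper-Pearson) for shares and Newcombe's for differences. They cover counting error over peaks only. No H3 peak, the chromatin control, was listed in the window in either phase. The nearest was 446 kb away in S phase. Fold enrichment and the MACS score (-10 times the log10 of the p-value) are the authors' values over IgG, used here only to describe and order peaks within a list. Tag counts are printed as deposited, and RPM stands for tags per 1000000 filtered tags of the library.

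HNF4A was the most frequent protein of the region in S phase, and CTCF was sparse there. The S-phase HNF4A list had 21 peaks in the window, 19.1 per Mb against 5.61 per Mb of the effective genome, a density 3.40 times as high (exact Poisson interval 2.11 to 5.20). MYC protein had 10 peaks at 2.09 times (1.00 to 3.85), RAD21 16 peaks at 1.47 times (0.843 to 2.40) and KLF5 3 peaks at 1.27 times (0.261 to 3.70) the genome's density. CTCF had 6 peaks, 0.527 times (0.193 to 1.15). Of 2610 stretches of the same length that held any peak, 46 (1.76%) had more HNF4A summits than this one and 1723 (66.0%) had more CTCF summits. The HNF4A peaks held 25 to 162 tags (median 48), which is 2.05 to 13.3 RPM, and 15 of the 21 scored above the median of their list. By contrast 4 of the 16 RAD21 peaks and 3 of the 10 MYC peaks did so.

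**Figure D1:**
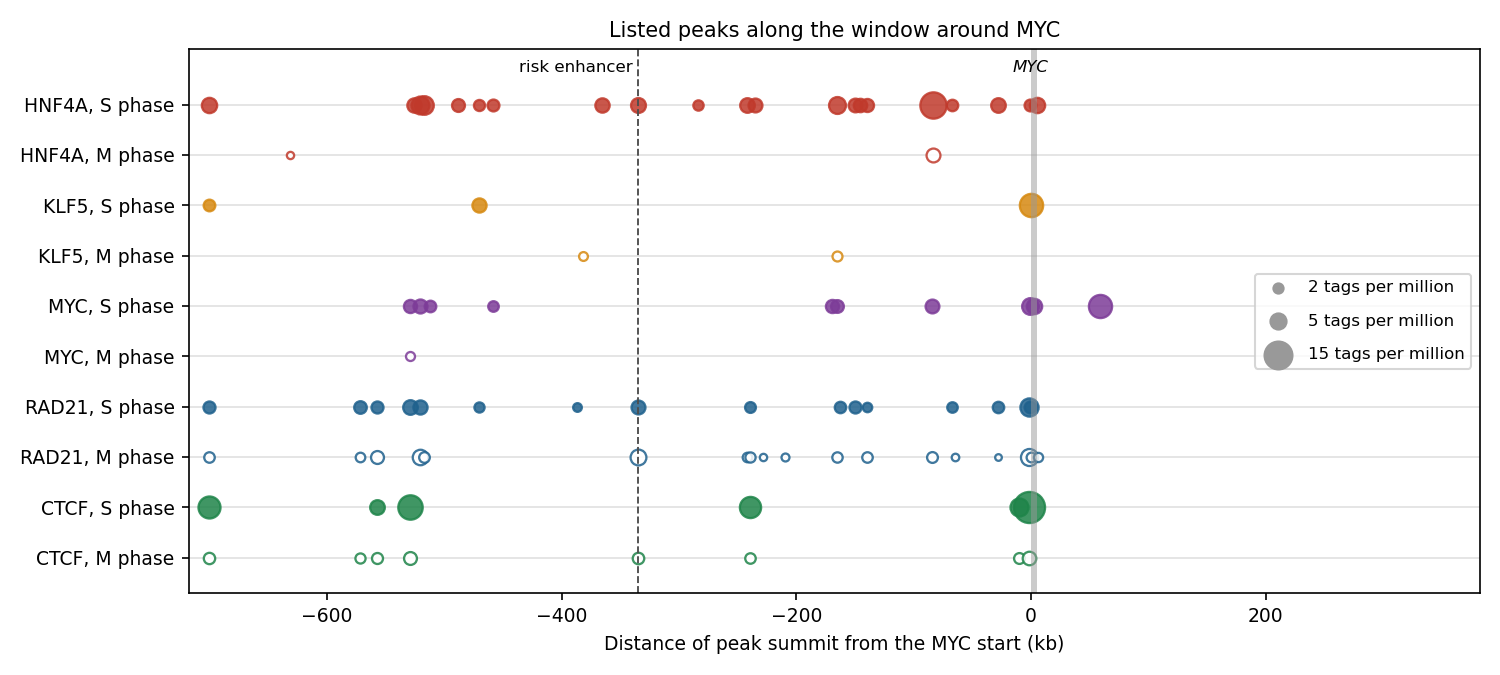
Each point is a listed peak, placed by the distance of its summit from the MYC start in kb (horizontal axis) in the row of its protein and phase. Filled points are S phase and open points M phase, the area grows with RPM, the grey band is MYC and the dashed line the risk enhancer. The S-phase HNF4A points run from -700.2 to 5.5 kb, and a single MYC point lies beyond the gene, at 58.7 kb.

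The stretch over the MYC gene and just before it carried all 5 proteins in S phase, but only RAD21 and CTCF in M phase. A chain of peaks separated by gaps of at most 1000 bp, here called a site, ran from 128814869 to 128824189, over the gene and the stretch just before it. In S phase it held 8 peaks, with 1 of CTCF, 2 of RAD21, 2 of MYC, 2 of HNF4A and 1 of KLF5. In M phase it held 3 RAD21 peaks and 1 CTCF peak, and none of HNF4A, KLF5 or MYC was listed. The S-phase RAD21 peaks and the M-phase CTCF peak of this site ended before the gene start.

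CTCF and cohesin met at 1 point about 2 kb before the gene, and this point was the same in both phases. The CTCF summit lay at -1.98 kb in S phase and moved by 1 bp in M phase. CTCF had 140 tags (18.6 RPM) over 3625 bp in S phase and 50 tags (3.52 RPM) over 932 bp in M phase. The S-phase peak was the widest CTCF peak of the window, and per kb it held 5.14 RPM against 3.78 in M phase. The RAD21 summit lay at -2.05 kb in S phase with 48 tags at 20.58-fold, and at -2.00 kb in M phase with 92 tags at 18.43-fold. Among the peaks of the window these were the RAD21 peaks of highest fold in each phase, and the M-phase CTCF peak, at 32.49-fold, was the CTCF peak of highest fold in M phase. Its score ranked 1919 in a list of 24391.

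The S-phase summits of MYC protein, KLF5 and HNF4A nearest to the gene start all lay nearer to it than the joint summit of CTCF and cohesin. MYC protein had its summit at -0.41 kb with 50 tags (5.39 RPM), 12 bp from that of KLF5, whose peak of 108 tags (10.4 RPM) spread over 4918 bp from 128816062 to 128820979. HNF4A was weak here, with 33 tags at 5.04-fold and a summit at -0.99 kb, and 18.8% of its list had a lower score. A further RAD21 peak of 20 tags had its summit at -0.80 kb. Within the gene, MYC protein had another peak at 2.65 kb with 42 tags, and at the far end of the gene HNF4A had one at 5.52 kb with 55 tags. In M phase, RAD21 peaks of 30 tags at 0.36 kb and 27 tags at 6.10 kb were listed where S phase had no RAD21 peak. Their FDR, which the caller derives by exchanging ChIP and control, was 11.23% and 10.26%. A CTCF site without RAD21 in either phase lay at -10.2 kb (128806698 to 128808131). Its S-phase peak of 47 tags had the highest CTCF fold of the window in that phase, 22.37, and the M-phase peak of 32 tags had a fold of 13.25.

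**Figure D2:**
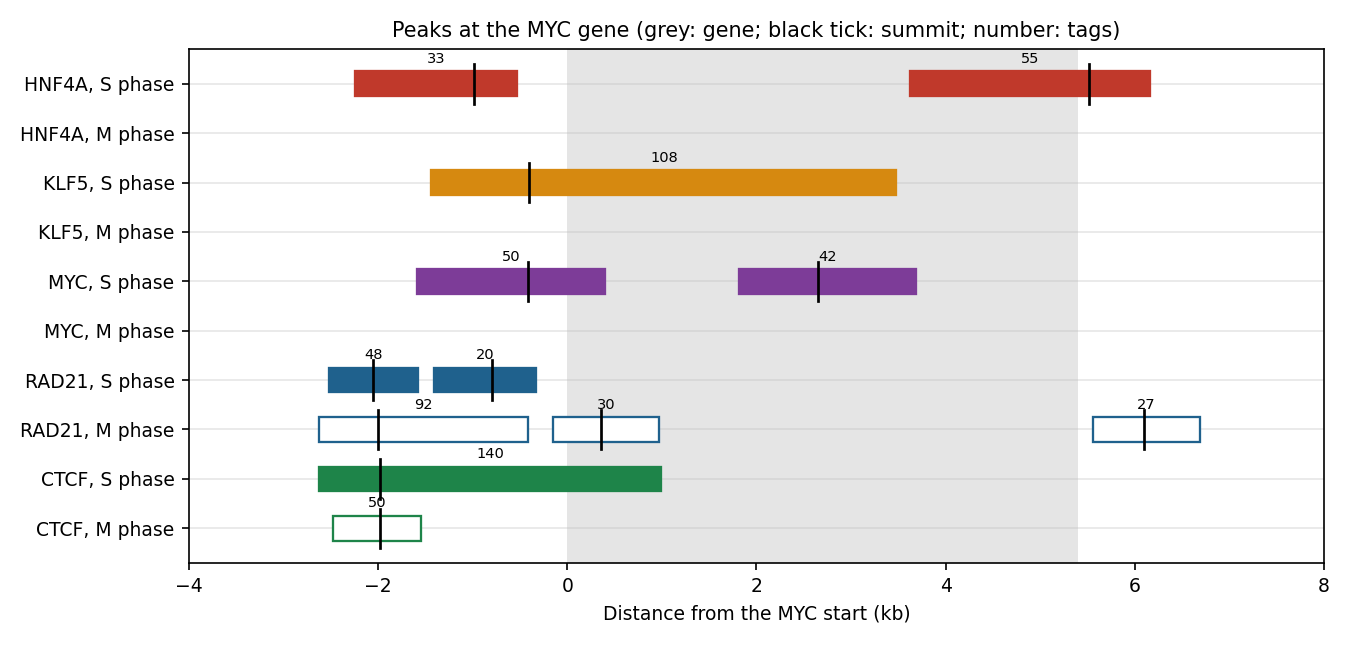
Boxes are listed peaks at MYC by distance from its start in kb (horizontal axis), in 1 row for each protein and phase, filled for S phase and open for M phase, with black ticks at summits and the deposited tag count above each box. The rows of HNF4A, KLF5 and MYC in M phase are empty, and the CTCF and RAD21 summits near -2 kb line up in both phases.

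More of the S-phase cohesin peaks of the region lay at HNF4A than at CTCF, the reverse of the order over the whole list. Of the 16 S-phase RAD21 peaks, 10 overlapped an HNF4A peak by at least 1 bp (62.5%, interval 35.4 to 84.8%), against 10.6% of all listed RAD21 peaks. The difference from the rest of the list was 51.9 percentage points (28.1 to 71.0). CTCF was at 6 of the 16 (37.5%, 15.2 to 64.6%), against 76.2% of the list, a difference of -38.8 points (-57.8 to -14.9). HNF4A without CTCF was at 7 of the 16, against 5.45% of the list. When CTCF peaks of M phase were counted too, 8 of the 16 had CTCF, against 81.55% of the list. With a score of at least 100 required of the peaks of every protein, 5 RAD21 peaks were left, with HNF4A at 2 and CTCF at 2. The order was then not seen, but the list shares under that limit were 4.12% for HNF4A and 75.3% for CTCF. The limit also removed the HNF4A peak at -0.99 kb (score 60.89), which overlapped the RAD21 peak at -2.05 kb.

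Seen from HNF4A, 9 of its 21 S-phase peaks had RAD21 (42.9%, 21.8 to 66.0%), against 18.1% of its list, and the difference was 24.8 points (6.39 to 45.4). CTCF was at 2 of the 21, against 14.3% of the list, RAD21 without CTCF at 7, against 9.24%, and 8 of the 21 overlapped no other protein, against 53.3%. All 3 KLF5 peaks overlapped both HNF4A and RAD21, against 52.8% and 27.3% of the KLF5 list. MYC protein overlapped HNF4A at 6 of 10 peaks (42.7% of its list) and RAD21 at 3 of 10 (26.8%). CTCF had RAD21 at 5 of 6 peaks (71.4% of its list).

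**Figure D3:**
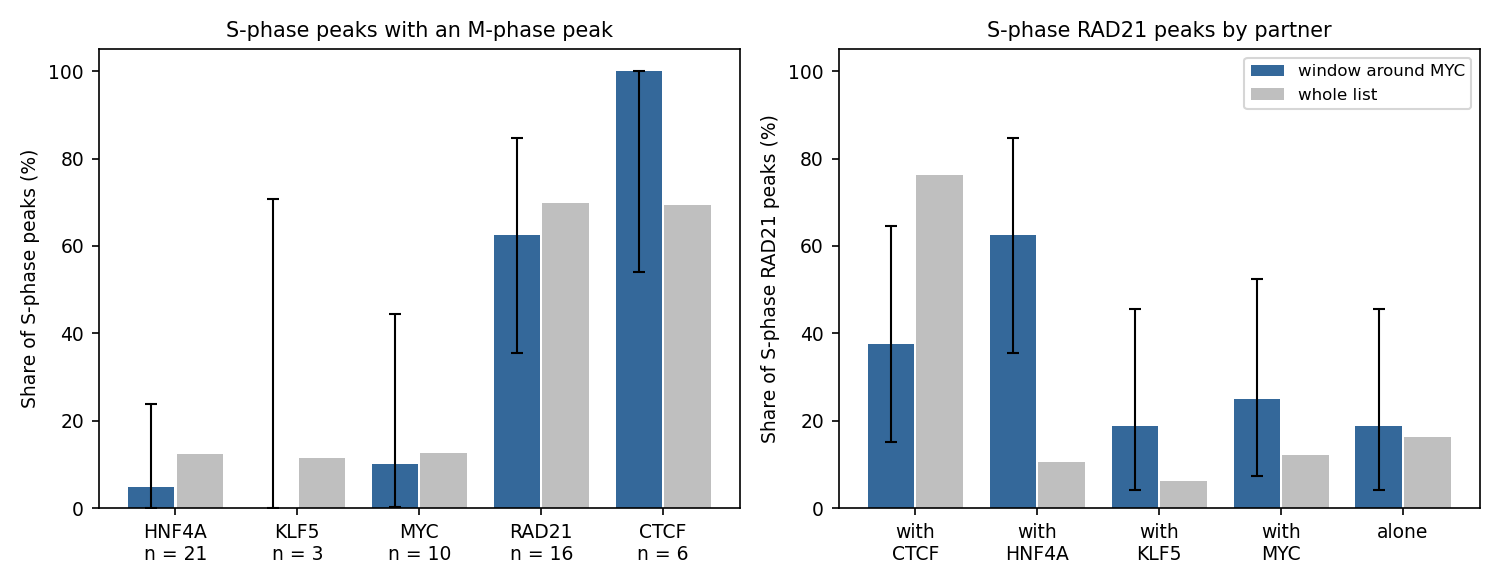
The left panel gives the percent of S-phase peaks of each protein with an M-phase peak of the same protein, and the right panel the percent of S-phase RAD21 peaks that overlap the named partner or none, in the window (blue) and over the whole list (grey). Error bars are exact 95% intervals over peaks of the window. S-phase RAD21 had HNF4A at 62.5% of its peaks in the window against 10.6% over the list, and CTCF at 37.5% against 76.2%.

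The chained peaks made 29 sites in S phase and 21 in M phase. In S phase 14 sites held 1 protein and 15 held at least 2 (51.7%), against 56.4% of sites over the genome. At least 3 were held by 6 (20.7%, 7.99 to 39.7%), against 12.4% of sites over the genome. In M phase 12 sites held 1 protein and 9 held a pair (42.9%), against 50.2% with at least 2 over the genome. None held 3, against 2.08% over the genome. Both phases together made 34 sites, with 14 occupied in both phases, 15 in S phase only and 5 in M phase only, and 32 of them lay before MYC. The same split by phase was not counted over the genome, so it is not read as particular to this region. The sites with the strongest or the most mixed occupancy are described next, from the risk enhancer outward.

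The colorectal cancer risk enhancer carried HNF4A and cohesin in S phase, and cohesin and CTCF in M phase. The site ran from 128481587 to 128483667, and all 4 of its peaks covered the enhancer position. In S phase HNF4A had 52 tags (4.27 RPM, 10.91-fold) with its summit 127 bp beyond the position, and RAD21 had 28 tags (3.72 RPM, 6.26-fold) with its summit at -114 bp. In M phase RAD21 had 79 tags (4.78 RPM, 10.32-fold, FDR 0.19%) with its summit at -84 bp. The M over S ratio of RAD21 RPM here was 1.29 (exact interval 0.827 to 2.06), the highest of the region, and its interval includes 1. The M-phase peak was the wider, at 2081 bp against 902 bp, and per kb of listed width the order turned, with 2.30 RPM in M phase and 4.12 in S phase. CTCF was listed in M phase only, with 36 tags (2.54 RPM, 17.14-fold) at an FDR of 5.5%. No KLF5 or MYC peak was listed at the enhancer in either phase.

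The strongest HNF4A peak by tags and score was at -83.7 kb (128732255 to 128735076), and it was the only HNF4A peak of the window that was listed again in M phase. It held 162 tags (13.3 RPM, 18.53-fold) in S phase and ranked 402 of 15437 by score. In M phase it held 62 tags (3.69 RPM, 7.43-fold), and the caller gave this M-phase peak an FDR of 64.18%. The M over S ratio was 0.277 (0.203 to 0.374), equal to 3 digits to the median of 0.277 over the 1873 HNF4A pairs of the genome. Per kb of listed width it was 0.455. MYC protein was also there in S phase with 34 tags. RAD21 was listed in M phase with 37 tags at an FDR of 10.9%, and not in S phase.

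A run of 5 sites from -529 to -513 kb held the HNF4A peak of highest fold and the only MYC peak listed in M phase. The HNF4A peak was at -517 kb, with 81 tags (6.65 RPM) at 32.45-fold, which ranked 375 of its list by fold. RAD21 was listed there in M phase only, with 36 tags. At -521 kb (128295494 to 128298096) HNF4A had 75 tags, MYC protein 35 and RAD21 29 in S phase, and RAD21 alone stayed, with 76 tags in M phase. These RAD21 peaks held 3.85 and 4.60 RPM, and their summits were 27 bp apart. The M over S ratio was 1.20 (0.770 to 1.90), and its interval includes 1. The M-phase peak was the wider, at 2022 bp against 1254 bp, with an FDR of 5.27%. Per kb of listed width it held 2.28 RPM, against 3.07 in S phase.

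At -529 kb (128287275 to 128289340) CTCF, MYC protein and RAD21 met in S phase without HNF4A. CTCF had 86 tags there (11.4 RPM), and MYC protein and RAD21 had 31 tags each, with summits 6 bp apart. In M phase CTCF had 45 tags (3.17 RPM) and MYC protein 24 tags (1.56 RPM, 7.17-fold), and no RAD21 peak was listed. The FDR of the M-phase MYC peak was 100%. The M over S ratio of MYC protein was 0.468 (0.263 to 0.824), and 0.717 per kb of listed width. The other sites of the run held HNF4A alone with 48 tags and MYC protein alone with 24 tags, both in S phase only.

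**Figure D4:**
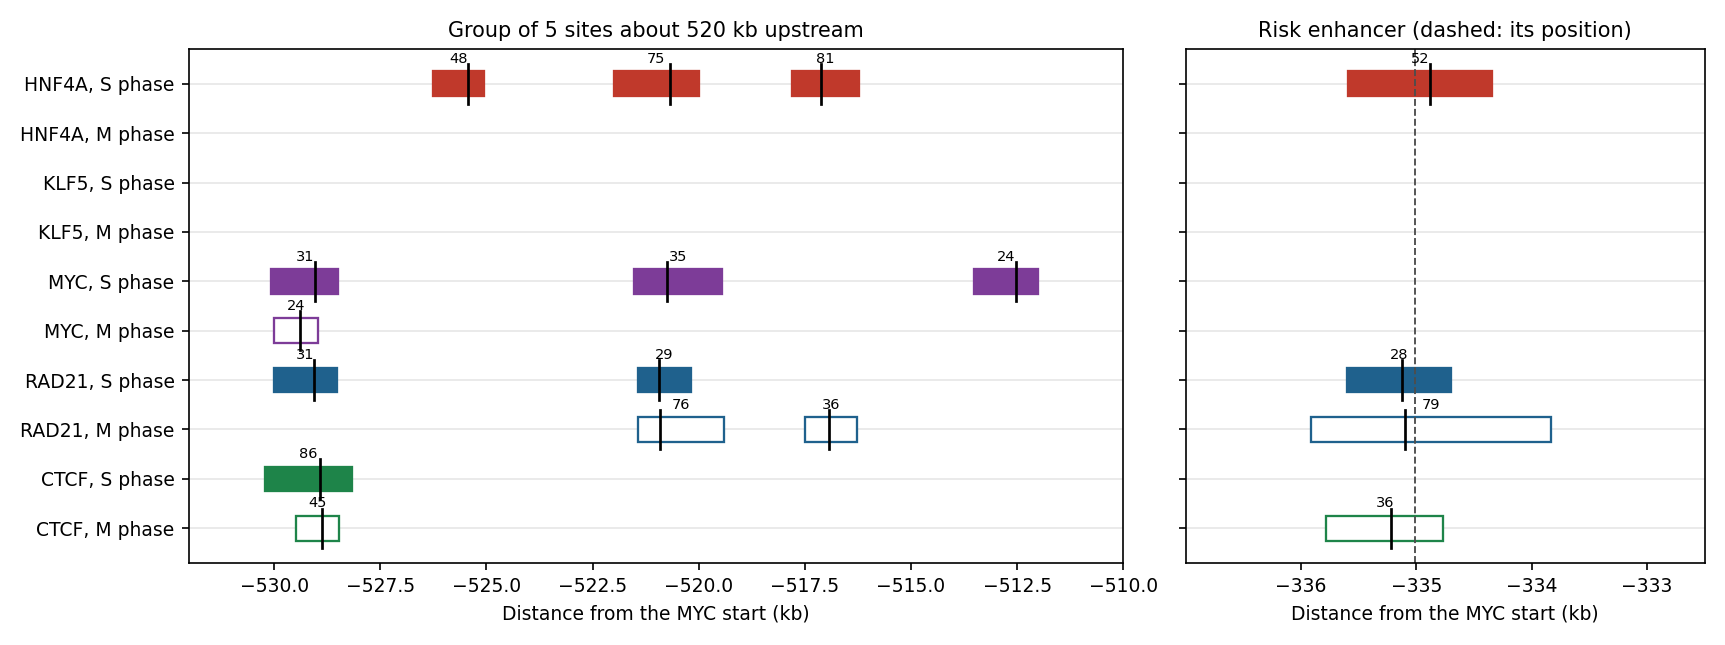
Boxes are listed peaks by distance from the MYC start in kb (horizontal axis), in 1 row for each protein and phase, for the run of sites from -529 to -513 kb (left) and the risk enhancer (right). Filled boxes are S phase, open boxes M phase, black ticks are summits, and the number above each box is its deposited tag count. At the risk enhancer the 79 RAD21 tags of M phase stand beside 28 in S phase, and CTCF has a box in M phase only.

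HNF4A was listed in S phase at 20 of the 34 sites of the window, among them all 4 further sites described in this paragraph. The farthest, at -701 kb (128116024 to 128117938), held CTCF (70 tags), HNF4A (55), KLF5 (27) and RAD21 (21) in S phase, and CTCF and RAD21 (35 each) in M phase. Its RAD21 peaks were near the cutoff score of 50, at 51.64 (3.84-fold) in S phase and 54.67 (3.69-fold, FDR 11.21%) in M phase. At -241 kb (128574879 to 128578623) S-phase HNF4A (50 tags) overlapped no other protein and was chained to a CTCF peak (65 tags) with RAD21 (17 tags). In M phase RAD21 was listed both at the place of the HNF4A peak (29 tags) and at that of CTCF (33 tags), and CTCF had 30 tags. At -470 kb (128346219 to 128347873) KLF5 (40 tags, 13.94-fold, its highest fold in the window), HNF4A (29) and RAD21 (15) were listed in S phase, and nothing in M phase. At -166 kb HNF4A (67 tags) and MYC protein (29) were listed in S phase, and RAD21 (34) and KLF5 (14 tags, 12.51-fold, FDR 2.66%) in M phase.

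A pair of sites held a transcription factor in M phase only, and both peaks were weak. HNF4A had 17 tags at -632 kb (11.16-fold, FDR 100%) and KLF5 had 11 tags at -382 kb (9.12-fold, FDR 22.69%). The M-phase list labelled KLF5 has 2118 peaks, a number that the labels give for the M-phase rabbit IgG sample. They do not say whether the files were exchanged, so the M-phase KLF5 peaks are those of the list labelled KLF5. Without that list 20 M-phase sites were left in place of 21.

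The other 20 sites held 32 peaks of 11 to 53 tags at 4.20-fold to 19.79-fold. Of these sites 13 were occupied in S phase only, 4 in both phases and 3 in M phase only. S-phase HNF4A was present at 11 of them with 25 to 50 tags (2.05 to 4.10 RPM), and at 6 of them it was alone and nothing was listed in M phase. HNF4A and RAD21 shared 4 of them in S phase. The 3 sites of M phase only held RAD21 alone with 17 to 20 tags.

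More than 5 kb beyond the MYC end, on the PVT1 side, 1 peak was listed in the window and it was the strongest MYC protein peak of the region. It lay at 58.7 kb (128875454 to 128878287), with 96 tags (10.3 RPM) at 19.98-fold in S phase, and ranked 448 of 11941 by score. None of the other 4 proteins overlapped it, and no M-phase peak was listed there. The stretch between it and the MYC site was free of peaks for 51.3 kb. Past it no peak of any of the 12 lists followed for 519 kb, of which 322 kb lie inside the window. The next was an M-phase MYC peak of 16 tags at 6.16-fold, 580.0 kb from the MYC start. Gaps at least this long occurred 19 times on chromosome 8 and 315 times in the genome.

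Between the phases most factor peaks of the region were no longer listed, while CTCF stayed listed at all 6 S-phase peaks under the 1 bp overlap. Of the S-phase peaks, 1 of 21 for HNF4A had an M-phase peak of the same protein (4.76%, 0.120 to 23.8%), against 12.3% of its whole list. For KLF5 it was 0 of 3, against 11.4% of its list, where 3 peaks allow a share of up to 70.8%. For MYC protein it was 1 of 10 (0.253 to 44.5%), against 12.6%. RAD21 was kept at 10 of 16 peaks (62.5%, 35.4 to 84.8%), against 69.7% of its list, and CTCF at 6 of 6 (100%, 54.1 to 100%), against 69.4%. The RAD21 share was 37.5% when the peaks of both phases had to share 50% of their length or have an FDR under 5%. It was 40% (2 of 5) when the peaks of both phases needed a score of at least 100. CTCF was kept at 4 of 6 with 50% shared and at 2 of 4 with an FDR under 5%. Shares of the whole list under these other rules are not given, so the values are not to be read against 69.7% and 69.4%. None of the shares under the 1 bp overlap was distinguishable from that of the rest of its list, since every interval of the difference spans 0. It ran from -11.5 to 10.4 points for HNF4A, from -31.1 to 11.8 for RAD21 and from -8.42 to 31.2 for CTCF. RAD21 peaks with S-phase CTCF were kept at 5 of 6 (81.2% of such peaks in the list) and those without at 5 of 10 (33.0%).

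M phase had 18 RAD21 peaks in the window against 16 in S phase, from a library 2.19 times as deep, and 9 of the 18 overlapped an S-phase RAD21 peak (50%, 26.0 to 74.0%), against 82.0% of the M-phase list. Of the 18, 11 lay at an S-phase HNF4A peak (61.1%, 35.7 to 82.7%), against 8.98% of the M-phase list, and the difference from the rest was 52.2 points (29.7 to 70.8). CTCF of M phase was at 6 of the 18 (71.4% of the list), and 10 of the 18 overlapped no other M-phase protein (26.4% of the list). Of the 9 M-phase RAD21 peaks with no S-phase RAD21, 5 lay at an S-phase HNF4A peak (55.6%, 21.2 to 86.3%), against 16.1% of such peaks in the list. Of the 9 with S-phase RAD21, 6 did so, against 7.41%. The 9 without it were all weak, with 17 to 37 tags, and none had an FDR under 5%. Over the 18 peaks, 5 had an FDR under 5%, against 62.3% of the M-phase RAD21 list. M-phase CTCF had 8 peaks in the window, of which 6 had RAD21 (67.6% of its list) and 2 had an FDR under 5% (36.6% of its list). The part that library depth and peak strength have in these counts was not tested.

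Where a protein had 1 peak in each phase, the difference between cohesin and CTCF depended on the width of the listed peaks. RPM over the listed width was lower in M phase at all 6 CTCF pairs and at 4 of 8 RAD21 pairs, and RPM per kb was lower in M phase at all pairs of both. Over the 8 RAD21 pairs the median M over S ratio was 1.02 (range 0.336 to 1.29), beside 0.745 over 18670 pairs of the genome. The exact interval lay below 1 at 1 of the 8, at -28.5 kb, where the S-phase peak had 19 tags and that of M phase 14. Over the 6 CTCF pairs the median was 0.271 (0.189 to 0.564), beside 0.330 over 19311 pairs, and all 6 intervals lay below 1. The lowest ratio over the listed width was that of the CTCF peak before the MYC promoter, 0.189 (0.134 to 0.263). Counted per kb, the same pair had the highest ratio of the 6 CTCF pairs, 0.736. The M-phase peak was the narrower in all 6 CTCF pairs and the wider in 7 of 8 RAD21 pairs. Per kb of listed width the median ratio was 0.696 (0.417 to 0.885) for RAD21 and 0.540 (0.341 to 0.736) for CTCF, beside 0.650 and 0.550 over the genome. In S phase both the CTCF library and the goat IgG come from an alignment set named differently from the others. CTCF and RAD21 summits moved between phases by a median of 42.5 bp (79 bp at most) and 49 bp (316 bp at most). The medians over the genome's pairs were 35 bp for CTCF and 41 bp for RAD21. The summit of the 1 MYC pair moved by 335 bp and that of the 1 HNF4A pair by 119 bp.

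**Figure D5:**
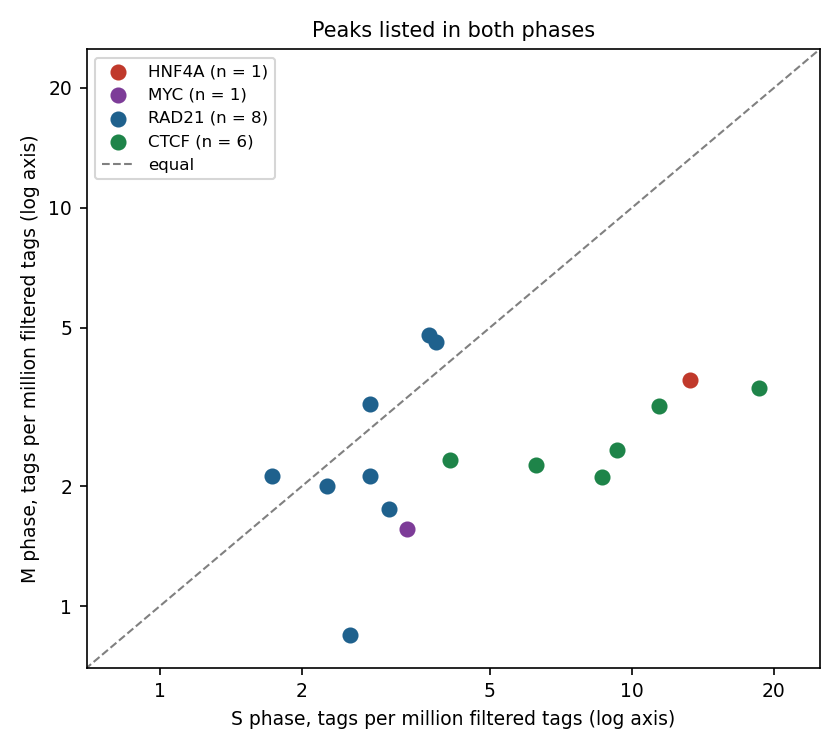
Each point is a place with 1 listed peak of the protein in each phase, with RPM in S phase (horizontal, log axis) and M phase (vertical, log axis). The line marks equal values. The 8 RAD21 points lie on both sides of the line, the lowest at -28.5 kb with a ratio of 0.336, and the 6 CTCF points and the HNF4A and MYC points lie below it.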

How the data were processed

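ChIP-seq peaks of 5 proteins and histone H3 were analysed from 16 libraries of LoVo cells, 12 ChIP and 4 IgG, with 1 library per target and phase. Chromatin had been fixed with 1% formaldehyde and 5 ug of antibody used, per the labels' protocols. BWA, CASAVA 1.4 and MACS 1.4 are named in the submitters' processing notes. The authors called peaks for each library against its IgG control with MACS 1.4.0rc2 on hg18 at a p-value cutoff of 1e-05, per the file headers. The deposited lists give the tag count of each peak, a score (-10 times log10 p, from 50 upward), a fold enrichment ratio over control and an FDR in percent. The headers also give the filtered tags of each library, by which tag counts were divided and multiplied by 1000000.

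Peaks overlapping the window were taken from all lists. A peak was counted as kept when a peak of the same protein in the other phase overlapped it by at least 1 bp. Peaks with gaps of at most 1000 bp were chained into sites. Intervals are at 95% (exact Clopper-Pearson, Newcombe for differences, exact Poisson for densities, exact conditional for ratios), over peaks or tags, and cover counting error only. A site was described by name if it held at least 3 proteins in S phase or a factor in M phase, lay within 5 kb of MYC or the risk enhancer, held the highest fold of a library in the window, or was of M phase only at 10-fold or more. The members, lists and this rule were chosen with earlier results of these data known. Densities used the effective genome of 2750 Mb of the headers. The calculations were tested on simulated peaks. Python 3.11.15, numpy 2.4.6, pandas 2.3.3, scipy 1.17.1 and matplotlib 3.10.9 were used.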

Additional observations from a re-analysis of the deposited data

How the results depend on the processing

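Other overlap rules, gaps, score and FDR limits, leaving out peaks at H3 peaks, and a window wider by 100 kb were tried. Among the 65 alternatives, which included tags per kb of listed width, 53 stayed within the interval or within 1.5 times of the reported value. Some of the 53 could not move. No H3 peak lies in the window, and the wider window changed no count. The KLF5 share of 0 could not rise under the stricter overlap, score and FDR rules. The number 53 is therefore not read as a measure of stability. With summits within 100 bp required, the kept share was 0 for HNF4A and 0 for MYC protein. With an FDR under 5% in both lists it was 50% (2 of 4) for CTCF and 0 for MYC protein. It was also 0 for HNF4A, where no other value was possible, since 0 of its 2413 M-phase peaks have such an FDR. For MYC protein the 0 was fixed as well, since its only M-phase peak of the window has an FDR of 100%. With a score of at least 100 the kept share was 0 for MYC protein (0 of 3), again fixed, since that M-phase peak scored 68.11. Under this limit S-phase sites with at least 3 proteins fell from 6 to 1, and M-phase sites from 21 to 10. With an FDR under 5% there were 7 M-phase sites. The cause was not tested, beyond the fewer peaks that these limits leave. Of the 17 alternatives added after seeing the data, the M over S ratio per kb of listed width moved from 0.277 to 0.455 for HNF4A, from 0.468 to 0.717 for MYC protein and from 0.271 to 0.540 for CTCF, since M-phase peaks were narrower there. The shares of RAD21 peaks with CTCF and with HNF4A stayed within their wide intervals, but both were 40% (2 of 5) with a score of at least 100 required of every peak. Over the list these shares were then 75.3% with CTCF and 4.12% with HNF4A. H3 gave no value, since it had no peak in the window. No paired analysis was possible because each protein has 1 library per phase and the labels carry no replicate numbers. Tag counts of 11 to 162 a peak limit the precision of single ratios.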
